A study of Homo sapiens with 18 samples.

Results

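Immediate early genes of the EGR and AP-1 families were followed across 18 arrays of the prostate cancer cell lines 22Rv1 and LNCaP. The set was 10 genes by name: EGR1, EGR2, EGR3, FOS, FOSB, JUN, JUNB, IER2, IER3 and ATF3. Of these, 9 had a probe set with a single gene symbol (16 probe sets in all), 8 passed the filter on low values, and these 8 belong to 12159 genes tested of 19775 with such a probe set. FOSB exceeded a log2 value of 4, the level below which a value was treated as background, on 1 array and is given by its values only, and EGR2 was not analysed here. The set was chosen from earlier results of these same arrays, in which EGR3 in 22Rv1 and IER3 in LNCaP were among the highest rises with ONECUT2 overexpression. The overexpression comparisons of these genes are therefore a description and carry no p-value.

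Immediate early genes are switched on within minutes of a growth factor, serum or stress signal, without new protein synthesis, because the factors at their promoters are already present and are activated by kinases. EGR1 and EGR3 are zinc finger transcription factors that bind GC-rich sites. FOS and FOSB proteins pair with JUN or JUNB proteins to form AP-1, and ATF3 is a related leucine zipper factor induced by stress and by the ATF4 pathway. IER2 is a small nuclear protein, and IER3 is a short-lived protein linked to survival and to ERK signalling. In prostate cancer cells these genes report on growth factor, MAP kinase and stress signalling.

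There were 6 groups of 3 arrays. The 22Rv1 groups were control cells, whose treatment is labelled vehicle, cells carrying an ONECUT2 overexpression construct, cells labelled scramble shRNA and cells labelled shONECUT2, and the LNCaP groups were control and overexpression. ONECUT2 is a homeodomain transcription factor, and the design was to raise it in both lines and to silence it in 22Rv1. The construct was the full-length cDNA with a Myc-DDK tag in a lentiviral vector, the shRNA vector was pLKO1, transduced cells were selected with puromycin into stable lines, and the labels do not say that the control cells carried an empty vector. The arrays of a group are not stated to be separate cultures, so their spread may be technical, and in bulk RNA fewer expressing cells and less RNA per cell cannot be told apart.

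The proximal promoters of EGR1, FOS, JUN and ATF3 are shown as those of an EGR factor, of both kinds of AP-1 subunit and of the stress-induced factor, each with a match to a known element of such promoters. The RefSeq promoter table (GRCh38.p14) had entries for 8 of the 10 genes, and the 250 bases before the annotated start were used. Capitals mark matches, on either strand, to the CArG box bound by serum response factor, the half-site TGACG of CREB and ATF factors, the JUN and ATF site TGACATCA, and the EGR site GCGNGGGCG. The full site TGACGTCA, which contains the half-site on both strands, and the AP-1 site TGANTCA were also searched and had no match in these 4 windows.
EGR1 (chr5:138465229-138465478, plus strand, start site 1): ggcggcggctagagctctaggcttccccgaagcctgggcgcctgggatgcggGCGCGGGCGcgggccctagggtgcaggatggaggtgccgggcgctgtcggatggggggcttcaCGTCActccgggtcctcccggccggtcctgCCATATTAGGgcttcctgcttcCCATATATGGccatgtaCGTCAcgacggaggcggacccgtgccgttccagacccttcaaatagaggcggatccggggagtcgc
FOS (chr14:75278578-75278827, plus strand, start site 1): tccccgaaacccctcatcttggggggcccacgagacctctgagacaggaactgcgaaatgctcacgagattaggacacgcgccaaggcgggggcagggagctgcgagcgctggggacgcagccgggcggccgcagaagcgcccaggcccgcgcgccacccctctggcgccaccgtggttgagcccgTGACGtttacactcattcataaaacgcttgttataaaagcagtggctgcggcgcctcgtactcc
JUN (chr1:58784048-58784297, minus strand, start site 1): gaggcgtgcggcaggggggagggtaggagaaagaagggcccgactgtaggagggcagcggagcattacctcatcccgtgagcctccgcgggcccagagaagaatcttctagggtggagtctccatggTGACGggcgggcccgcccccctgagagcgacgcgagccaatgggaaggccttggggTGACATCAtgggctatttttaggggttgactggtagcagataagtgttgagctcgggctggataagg
ATF3 (chr1:212565157-212565406, plus strand, start site 1): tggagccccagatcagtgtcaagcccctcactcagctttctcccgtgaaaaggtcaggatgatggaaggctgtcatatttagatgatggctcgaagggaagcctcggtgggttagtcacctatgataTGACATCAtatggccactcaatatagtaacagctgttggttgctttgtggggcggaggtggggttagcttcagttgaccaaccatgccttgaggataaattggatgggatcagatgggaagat
The EGR1 window held 2 CArG boxes, at -105 to -96 and at -83 to -74 from the start site, 2 half-sites and 1 EGR site at -198 to -190. FOS had 1 half-site, at -64 to -60. JUN had TGACATCA at -67 to -60 and 1 half-site, at -123 to -119. ATF3 had TGACATCA at -123 to -116 in the first of its 2 promoter entries. Among 35116 promoter windows of the same length, 1.16% held a CArG box, 2.37% TGACATCA, 8.41% the EGR site, 21.2% the half-site, 1.65% TGACGTCA and 6.57% TGANTCA. A match is a description of the letters, and binding was not measured on these arrays.

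Array medians lay between 3.26 and 3.34 on the log2 scale, and 38.3% to 40.0% of probe sets exceeded 4 on each array. Arrays of a group correlated at 0.996 or more except in LNCaP overexpression, where the lowest correlation was 0.975. There replicate 1 stood closer to the LNCaP controls (mean r 0.969, against 0.948 and 0.953 for replicates 2 and 3). Replicate 3 stood apart in 78 genes that had values over 9 with overexpression in 22Rv1 while LNCaP control had them under 4. Of these, 6 were under 4 on replicate 3, against 34 and 30 on replicates 1 and 2. The level in 22Rv1 control played no part in choosing the 78, so genes that rose with overexpression can be among them. EGR3 meets the rule, with means of 10.20 with overexpression and 4.71 in control in 22Rv1. Whether replicate 3 carried signal of 22Rv1 cells was not tested. LNCaP values of the members and counts of the lists are therefore given with and without these arrays. With replicates 1 and 3 both left out, 1 LNCaP overexpression array remains, which the model takes to vary like the other groups, and such values are given as values only. ONECUT2 itself, read by the probe set of highest mean, was higher in overexpression than in control by 0.54 ± 0.16 (SE) in 22Rv1 and 0.66 ± 0.16 in LNCaP, but between the shRNA groups it ran the other way, with the shONECUT2 label 2.05 ± 0.16 above scramble, which itself differed from control by -1.41 ± 0.16. Other ONECUT2 probe sets gave other sizes: on 207676_at the mean went from 2.93 to 6.61 in LNCaP (overexpression arrays 5.23, 7.17 and 7.43) and from 3.25 to 4.38 in 22Rv1, whereas on 233446_at it went from 5.43 in 22Rv1 control to 4.46 in 22Rv1 overexpression. The shRNA groups are therefore named by their labels only. Where on the transcript these probe sets lie was not analysed here. Of 9 prostate epithelial markers, KLK3, HOXB13, EPCAM, CDH1, KRT8 and KRT18 exceeded 4 on all arrays of every group, TMPRSS2 in no 22Rv1 group, FOLH1 in neither overexpression group and KLK2 not in LNCaP overexpression. The mean over the 9 ranged from 8.77 to 8.81 in 22Rv1 control, 7.93 to 8.06 in 22Rv1 overexpression, 9.07 to 9.16 in scramble, 8.58 to 8.67 in the shRNA-labelled arrays, 10.66 to 10.70 in LNCaP control and 8.23 to 9.10 in LNCaP overexpression. The markers thus moved with the groups, KLK3 among them (-6.68 in LNCaP overexpression against control and -4.41 in shRNA-labelled against scramble), and their part in the results was not tested. Further, 0 of 4 leukocyte and 0 of 3 endothelial markers did so in any group. In the list of fibroblast and smooth muscle markers COL1A1 exceeded 4 in all 6 groups, and the mean over its 6 genes ranged from 4.11 to 4.21 in 22Rv1 control, 4.16 to 4.28 in 22Rv1 overexpression, 4.37 to 4.46 in LNCaP control and 4.83 to 5.01 in LNCaP overexpression.

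ONECUT2 overexpression went with higher EGR1, EGR3, FOS, IER3, ATF3 and JUNB in 22Rv1 and with all 8 tested genes higher in LNCaP. The count was 6 higher and 0 lower of 8 in 22Rv1, where 36.5% of all genes tested were called higher and 24.3% lower, and 8 higher and 0 lower of 8 in LNCaP, where 34.1% were called higher and 28.0% lower. A call is an adjusted p under 0.05 in limma with Benjamini-Hochberg adjustment. The median change of the 8 genes was 2.12 log2 units in 22Rv1 against 0.10 over all genes, and 3.35 in LNCaP against 0.09 over all genes. The genes were chosen on these contrasts, so nothing follows from these counts. Leaving out LNCaP overexpression replicate 2 or 3, or any LNCaP control array, gave a count of 7 in LNCaP.

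**Figure D1:**
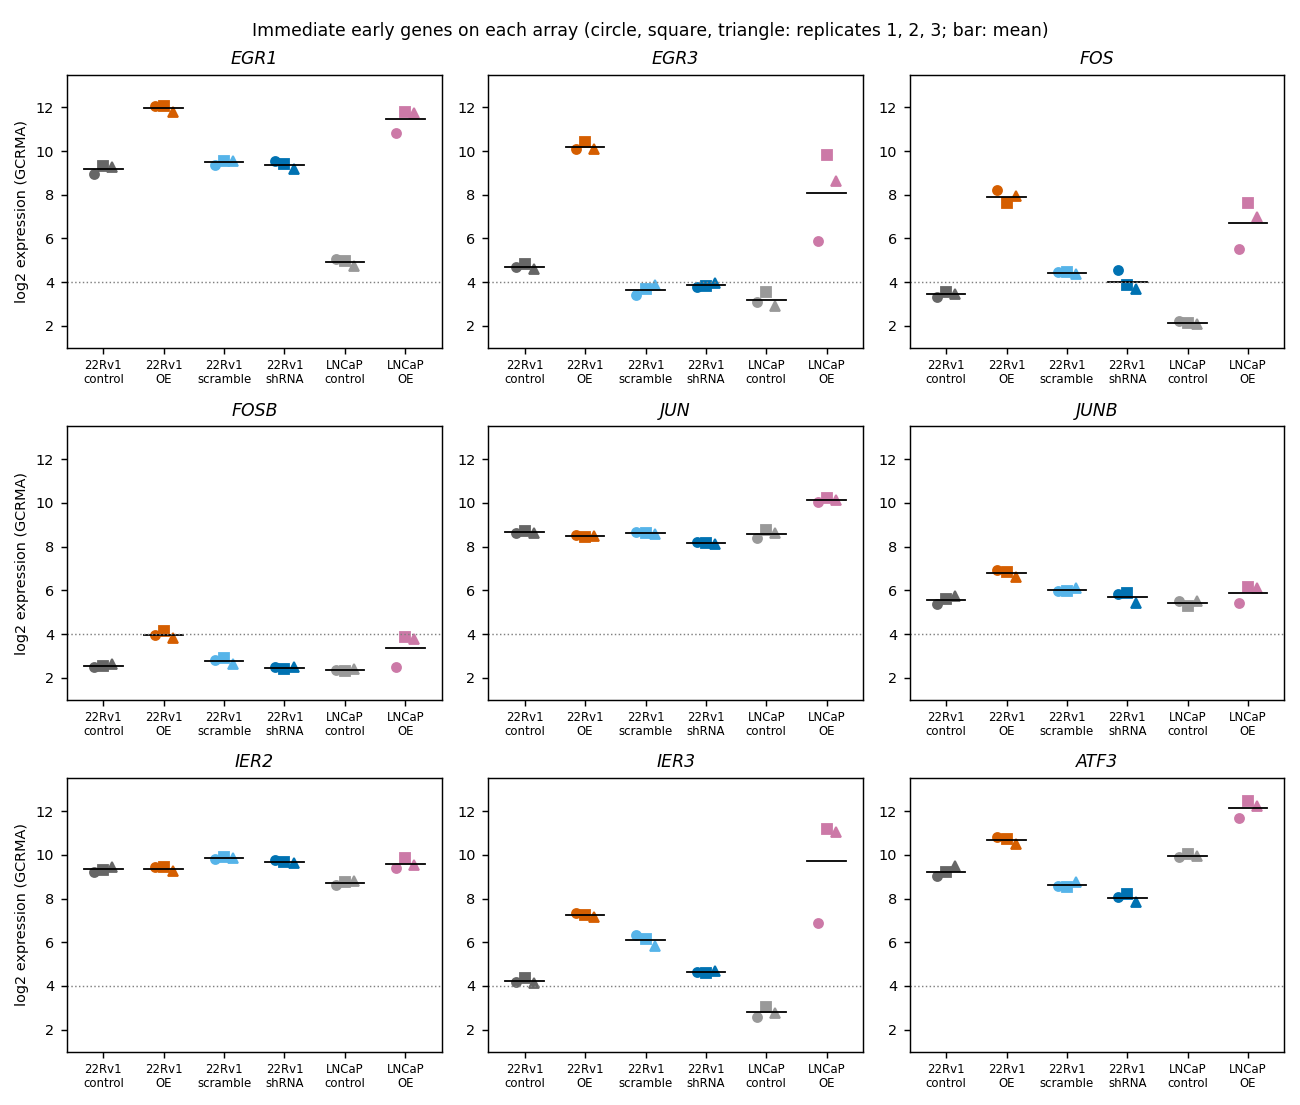
Log2 GCRMA values (vertical axes) of the 9 genes with a probe set on each array of the 6 groups (OE, ONECUT2 overexpression; scramble and shRNA as labelled), with the group mean as a bar and the level of 4 dotted. EGR1, EGR3 and FOS were high in both OE groups, and JUN was highest in LNCaP OE. On the plotted probe sets, those of highest mean, LNCaP OE replicate 1 (circle) lay lowest of its group for all 9 genes.

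EGR1 was the member whose level depended most on the cell line before any overexpression. On its probe set of highest mean, 201694_s_at, the log2 values were 8.94, 9.32 and 9.27 in 22Rv1 control and 12.05, 12.07 and 11.80 in 22Rv1 overexpression. In LNCaP they were 5.08, 4.96 and 4.73 in control and 10.83, 11.81 and 11.72 in overexpression. The groups did not overlap in either line: EGR1 rose by 2.80 ± 0.20 (6.94-fold) in 22Rv1 and by 6.53 ± 0.20 (92.3-fold) in LNCaP, where it ranked 10 of 12159. Without LNCaP replicate 1 the change was 6.84, and without replicates 1 and 3 it was 6.88. On this probe set the 2 overexpression groups ended at overlapping levels (means 11.97 and 11.45) after starting 4.25 units apart. They overlapped on 201693_s_at too (means 5.99 in 22Rv1 and 6.14 in LNCaP). On 227404_s_at they stayed apart, with means of 9.96 in 22Rv1 and 8.07 in LNCaP. Ordered by mean on 201694_s_at, the 2 overexpression groups were followed by scramble, shRNA-labelled and control 22Rv1. Scramble and 22Rv1 control each overlapped with the shRNA-labelled arrays but not with each other. LNCaP control was lowest by a wide gap.

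The other 2 EGR1 probe sets gave the same direction with other sizes. On 227404_s_at the values were 6.02, 5.97 and 5.96 in 22Rv1 control, 9.95, 9.92 and 10.02 in 22Rv1 overexpression, 4.05, 4.04 and 3.95 in LNCaP control and 7.52, 8.25 and 8.45 in LNCaP overexpression. That is 3.98 ± 0.18 in 22Rv1 and 4.06 ± 0.18 in LNCaP, nearly the same change in both lines. On 201693_s_at the changes were 1.35 ± 0.23 in 22Rv1 and, from LNCaP control values all under 4, at least 2.14 in LNCaP. The line difference of the EGR1 response was thus 3.73 ± 0.29 on 201694_s_at, at least 0.79 on 201693_s_at, where the LNCaP control is set at 4, and 0.08 ± 0.25 on 227404_s_at. How large EGR1's response differed between the lines rested on the probe set, while its rise in both lines did not.

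EGR3, a paralogue of EGR1 that acts downstream of it in several tissues, had the largest 22Rv1 change among the members. Its values were 4.68, 4.84 and 4.61 in 22Rv1 control and 10.08, 10.43 and 10.10 in 22Rv1 overexpression. It rose by 5.49 ± 0.62 (44.9-fold) and ranked 5 of 12159 genes there. In LNCaP the control values were 3.07, 3.57 and 2.89, all under 4, and the overexpression values 5.87, 9.82 and 8.61. The LNCaP change was 4.92 ± 0.62, at least 4.10 (17.1-fold) when the control is set at 4. The 3 LNCaP overexpression arrays spread widely (SD 2.03): the change was 6.04 without replicate 1, 4.06 without replicate 2 and 6.65 without replicates 1 and 3. Both overexpression groups lay above every array of the other 4 groups. In 22Rv1 the scramble arrays (3.43, 3.69 and 3.88) and the shRNA-labelled arrays (3.80, 3.81 and 3.96) were under 4, below all 3 control arrays.

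FOS, the AP-1 subunit that cannot pair with itself and needs a JUN partner, was at background in both control groups. Its values were 3.31, 3.56 and 3.46 in 22Rv1 control and 8.22, 7.61 and 7.92 in overexpression, and 2.22, 2.14 and 2.11 in LNCaP control and 5.54, 7.60 and 6.97 in overexpression. With the controls set at 4 it rose by at least 3.92 (15.1-fold) in 22Rv1 and at least 2.70 (6.52-fold) in LNCaP. The fitted changes were 4.48 ± 0.35 and 4.55 ± 0.35, and the LNCaP change was 5.13 without replicate 1 and 5.45 without replicates 1 and 3. All overexpression arrays lay above all arrays of the other groups. The 3 scramble arrays (4.45, 4.46 and 4.40) and 1 of 3 shRNA-labelled arrays (4.54, against 3.88 and 3.68) were over 4.

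FOSB, the close relative of FOS, stayed near or under background on this platform. Its values were 2.49, 2.56 and 2.62 in 22Rv1 control and 3.97, 4.13 and 3.83 in 22Rv1 overexpression. In LNCaP they were 2.34, 2.31 and 2.43 in control and 2.49, 3.87 and 3.75 in overexpression. The overexpression arrays were the higher ones in both lines, but with 1 array over 4 of 18 no fold is given. Scramble and shRNA-labelled arrays ranged from 2.42 to 2.92.

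JUN, the AP-1 subunit that can pair with itself or with FOS proteins, was highest in LNCaP overexpression and, on its probe set of highest mean, well expressed in all groups. On 201464_x_at its values were 8.62, 8.72 and 8.64 in 22Rv1 control and 8.52, 8.45 and 8.49 in 22Rv1 overexpression, a difference of -0.18 ± 0.10 that was not called. LNCaP control gave 8.41, 8.75 and 8.63 and LNCaP overexpression 10.05, 10.23 and 10.12, a rise of 1.54 ± 0.10 (2.91-fold). The 4 JUN probe sets shared the rise in LNCaP without a call in 22Rv1, but not the level. In LNCaP the changes were 2.72 ± 0.14 on 201466_s_at, 2.05 ± 0.19 on 213281_at and 1.31 ± 0.18 on 201465_s_at. In 22Rv1 they were 0.24 ± 0.14, -0.43 ± 0.19 and -0.35 ± 0.18, none of them called. All 22Rv1 arrays were under 4 on 201465_s_at, so no order is read from it there. On 213281_at the 22Rv1 overexpression arrays were under 4, and the difference was -0.37 with them set at 4. On 201464_x_at JUN also differed little between LNCaP overexpression arrays (SD 0.09). The change there was 1.64 without replicates 1 and 3, a smaller shift than those of EGR3 and IER3. On 201466_s_at the SD was 0.09 too, with replicate 1 highest (10.20 against 10.11 and 10.02). The SD was 0.31 on 213281_at and 0.48 on 201465_s_at. Among the other 5 groups on 201464_x_at, 22Rv1 control, scramble and LNCaP control overlapped, and the shRNA-labelled arrays were lowest.

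JUNB, an AP-1 subunit that often opposes JUN, had its larger rise in 22Rv1. Its values were 5.37, 5.59 and 5.72 in 22Rv1 control and 6.95, 6.85 and 6.61 in overexpression, a rise of 1.24 ± 0.19 (2.36-fold) without overlap. In LNCaP the values were 5.52, 5.30 and 5.51 in control and 5.41, 6.17 and 6.10 in overexpression. The change there was 0.45 ± 0.19 (1.36-fold), and the groups overlapped because replicate 1 lay within the control range. It was 0.69 without replicate 1 and 0.72 without replicates 1 and 3. JUNB was the member that dropped out of the LNCaP count when a single LNCaP control array, or LNCaP overexpression replicate 2 or 3, was left out.

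ATF3, a leucine zipper factor that can repress or activate with JUN proteins, was high in all groups and higher with overexpression. On 202672_s_at its values were 9.04, 9.19 and 9.47 in 22Rv1 control, 10.81, 10.70 and 10.51 in 22Rv1 overexpression, 9.89, 10.05 and 9.94 in LNCaP control and 11.66, 12.48 and 12.21 in LNCaP overexpression. The changes were 1.44 ± 0.17 (2.72-fold) in 22Rv1 and 2.16 ± 0.17 (4.46-fold) in LNCaP, or 2.52 in LNCaP without replicates 1 and 3. All 6 groups were separated on this probe set, from LNCaP overexpression at the top to the shRNA-labelled arrays at the bottom. A second probe set, 1554980_a_at, disagreed in 22Rv1: 4.85, 4.75 and 4.97 in control against 4.46, 4.33 and 4.04 in overexpression, a difference of -0.58 ± 0.21. In LNCaP it rose by 2.33 ± 0.21. When the ATF3 probe sets were averaged, the 22Rv1 change was 0.21. The third, 1554420_at, was under 4 on all arrays.

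**Figure D2:**
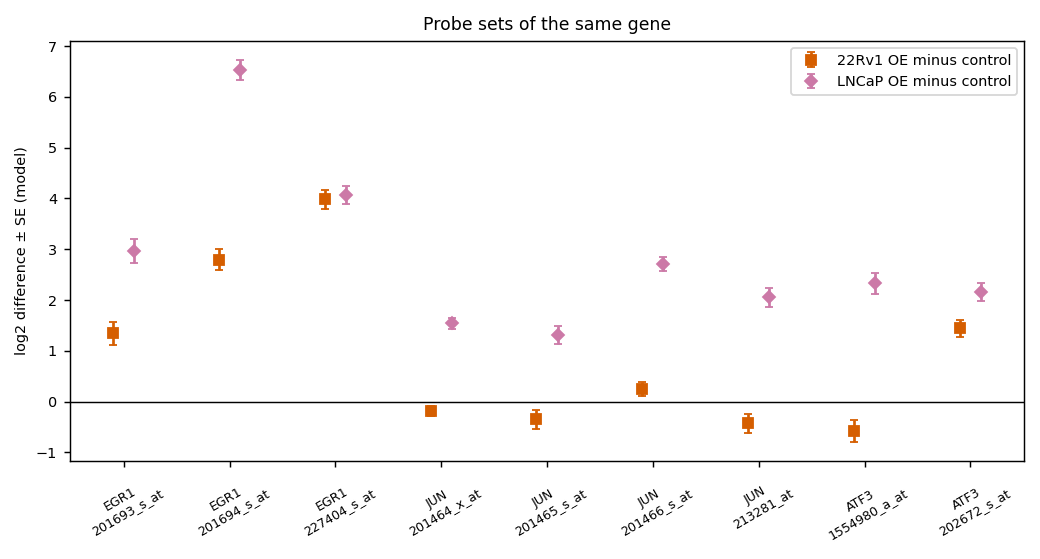
Log2 difference ± SE of overexpression (OE) minus control for the 9 probe sets of EGR1, JUN and ATF3 that passed the filter, in 22Rv1 (squares) and LNCaP (diamonds). The EGR1 probe sets were above 0 in both lines, the JUN probe sets were well above 0 in LNCaP alone, and the ATF3 probe sets had opposite signs in 22Rv1 (1.44 and -0.58).

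IER3, which is induced by growth factors and NF-kappaB, had the largest LNCaP change among the members. Its values were 2.59, 3.03 and 2.76 in LNCaP control and 6.86, 11.19 and 11.04 in LNCaP overexpression. The change was 6.90 ± 0.75 and at least 5.69 (51.8-fold) with the control set at 4. Replicate 1 lay more than 4 units below replicates 2 and 3, and without it the change was 8.32 (8.39 without replicates 1 and 3). In 22Rv1 IER3 went from 4.19, 4.35 and 4.14 in control to 7.33, 7.26 and 7.17 in overexpression, a rise of 3.03 ± 0.75 (8.16-fold). The large standard error in 22Rv1, where the SDs were 0.11 and 0.076, came with the shared estimate of spread, to which the LNCaP overexpression arrays (SD 2.46) belong. In the order of means, LNCaP and 22Rv1 overexpression overlapped, followed by scramble, shRNA-labelled, 22Rv1 control and LNCaP control, each apart from the next.

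IER2, a serum-induced nuclear protein, was among the least changed. Its values were 9.23, 9.32 and 9.45 in 22Rv1 control and 9.42, 9.43 and 9.27 in overexpression, overlapping groups that differed by 0.04 ± 0.11. In LNCaP the values were 8.62, 8.76 and 8.78 in control and 9.40, 9.86 and 9.52 in overexpression, a rise of 0.87 ± 0.11 (1.83-fold) without overlap, and 1.14 without replicates 1 and 3. IER2 ended in LNCaP overexpression close to its 22Rv1 level.

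**Figure D3:**
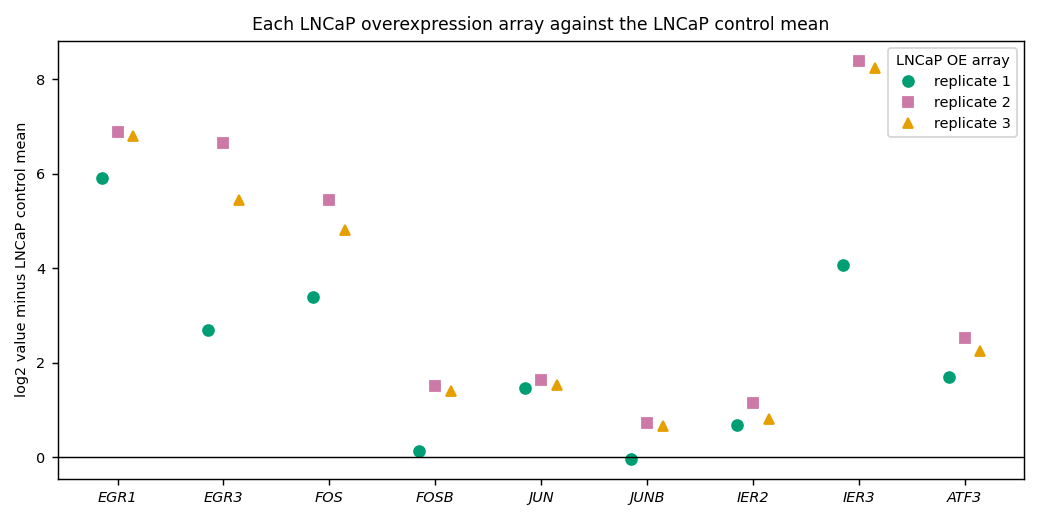
Log2 value of each LNCaP overexpression array minus the mean of the 3 LNCaP control arrays, for the 9 genes with a probe set (circle, square and triangle for replicates 1, 2 and 3). Read by the probe set of highest mean of each gene, replicate 1 was lowest for every gene. The gap was largest for IER3 (4.06 against 8.39 and 8.24) and EGR3 (2.69 against 6.65 and 5.43). It was small for JUN (1.45 against 1.64 and 1.53).

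The responses of the 2 lines were set against each other as LNCaP minus 22Rv1 changes, a contrast that the choice of these genes also used. The difference was called for 6 of 8 members, 5 with the larger response in LNCaP and JUNB with the larger response in 22Rv1, beside 18.1% of all genes called higher and 26.6% called lower. It was 3.87 ± 1.06 for IER3, 3.73 ± 0.29 for EGR1 on 201694_s_at, 1.72 ± 0.14 for JUN, 0.83 ± 0.16 for IER2, 0.71 ± 0.24 for ATF3 and -0.79 ± 0.26 for JUNB. For EGR3 (-0.56 ± 0.88) and FOS (0.07 ± 0.50) it was not called, and the EGR3 difference was 0.55 without LNCaP replicate 1. With values under 4 set to 4, the FOS difference was -1.22 and the IER3 difference 2.67, since LNCaP control was under 4 for both genes. The ATF3 and JUNB calls of this contrast were each lost with some single arrays left out. The beta-actin control probe sets read 8.06 ± 0.70 (SD, n = 3) log2 units higher at the 3′ than at the 5′ end in 22Rv1 overexpression, against 4.11 ± 0.41 in 22Rv1 control and group means of 2.85 to 4.27 in the other groups. For GAPDH the same reading was -0.43 in 22Rv1 overexpression and -0.70 in control. The part of this in the 22Rv1 values, and in the unequal probe sets of ATF3 and EGR1, was not tested.

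**Figure D4:**
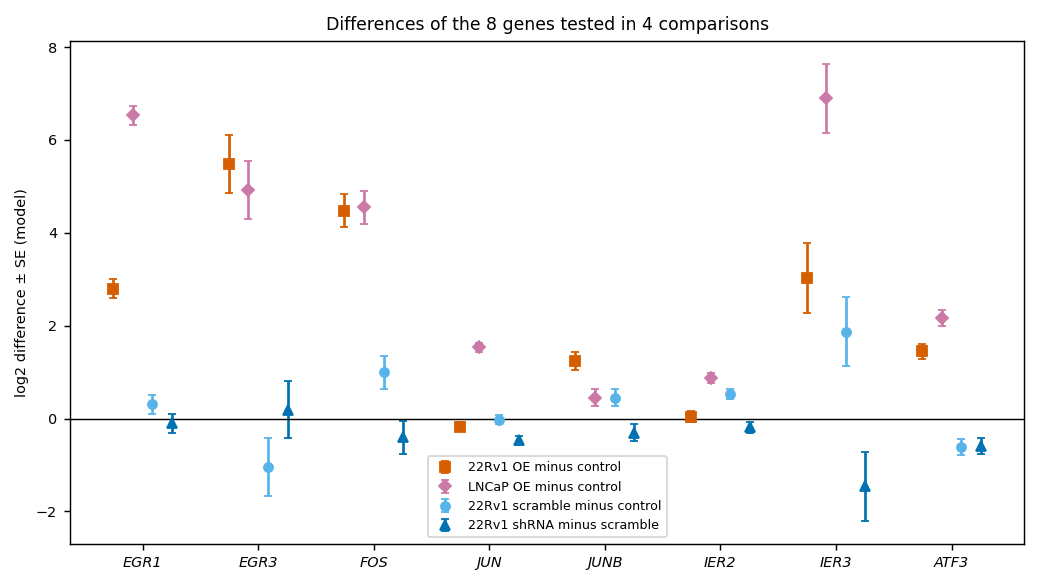
Log2 difference ± SE (limma, all 18 arrays) of the 8 genes tested, for overexpression (OE) minus control in 22Rv1 (squares) and LNCaP (diamonds), scramble minus control (circles) and shRNA-labelled minus scramble (triangles) in 22Rv1. The OE differences of EGR3 were 5.49 and 4.92 and those of FOS 4.48 and 4.55. Those of EGR1 (on the plotted probe set, 201694_s_at), IER3 and JUN were larger in LNCaP. JUN and ATF3 were below 0 in the shRNA-labelled arrays.

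Arrays labelled ONECUT2 shRNA were compared with arrays labelled scramble, a contrast in which ONECUT2 itself ran against the labels. JUN and ATF3 were lower in the shRNA-labelled arrays and 0 members were higher, 2 of 8 beside 16.1% of all genes called lower and 13.4% called higher, which is near the background. The median change of the 8 genes was -0.35 against -0.03 over all genes. JUN fell from 8.69, 8.62 and 8.59 to 8.19, 8.18 and 8.11, a change of -0.47 ± 0.10 (limma, adjusted p = 0.00171), and 2 of its other 3 probe sets fell with it (201466_s_at by -0.88 ± 0.14, adjusted p = 0.000187 over probe sets in limma). ATF3 fell from 8.58, 8.51 and 8.74 to 8.05, 8.19 and 7.82, a change of -0.59 ± 0.17 (limma, adjusted p = 0.0164). The ATF3 call was lost without scramble replicate 3 (-0.52) or without shRNA-labelled replicate 3 (-0.49), and with the probe sets averaged (-0.24).

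IER3 showed the widest gap of this contrast without a call. Its values were 6.34, 6.13 and 5.82 in scramble and 4.65, 4.60 and 4.67 in the shRNA-labelled arrays, groups that did not overlap. The difference of -1.46 ± 0.75 had an adjusted p of 0.163 in limma with all 18 arrays and 4.22e-05 with only these 2 groups in the limma fit. EGR1 on 201694_s_at did not pass (9.38, 9.53 and 9.54 against 9.53, 9.42 and 9.20, adjusted p = 0.758 in limma), whereas on 227404_s_at it fell from 6.47, 6.80 and 6.69 to 6.14, 5.89 and 5.89 (-0.68 ± 0.18, adjusted p = 0.00962 in limma). On 227404_s_at the scramble arrays were the high ones, 0.67 ± 0.18 above control (adjusted p = 0.0129 in limma), with means of 5.98 in control, 6.65 in scramble and 5.97 in the shRNA-labelled arrays. FOS, JUNB and IER2 differed by -0.40, -0.30 and -0.19 with adjusted p-values of 0.434, 0.245 and 0.231 in limma, and EGR3 was under 4 on all 6 arrays.

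The scramble arrays themselves differed from the 22Rv1 control arrays, 2 groups that the labels separate by the shRNA vector. In the fit of all arrays 1 member was higher and 1 lower, beside 12.5% of all genes called higher and 9.40% called lower. IER2 rose from 9.23, 9.32 and 9.45 to 9.83, 9.91 and 9.86 (0.53 ± 0.11, adjusted p = 0.00291 in limma), and ATF3 fell by 0.62 ± 0.17 on the log2 scale (adjusted p = 0.0156 in limma). The ATF3 call was lost without control replicate 3 (-0.50), scramble replicate 1 (-0.61) or scramble replicate 2 (-0.57). IER3 was 1.87 ± 0.75 higher in scramble (adjusted p = 0.0887 in limma), FOS 0.99 ± 0.35 higher (0.0551), JUNB 0.45 ± 0.19 higher (0.0972) and EGR3 -1.05 ± 0.62 (0.262). FOS control arrays and EGR3 scramble arrays were under 4, so FOS was at least 0.44 higher, and the EGR3 difference was -0.71 with scramble set at 4. All 4 had groups that did not overlap, but how many of all genes did so was not counted. With only these 2 groups in the limma fit their adjusted p-values were 1.82e-05, 9.62e-05, 0.0149 and 0.000332. That fit called 6 members, 4 higher and 2 lower, beside 4629 of 12159 genes, 2770 higher and 1859 lower. For IER3, the scramble arrays lay above both control and shRNA-labelled arrays, so its level in the shRNA-labelled arrays (mean 4.64) was nearer to that in control (4.23) than to that in scramble (6.10). The comparisons share the scramble arrays, and their values are given side by side for that reason.

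Without overexpression, LNCaP had less EGR1 than 22Rv1 and more ATF3. Of 8 members 1 was higher and 4 lower in LNCaP control, beside 30.2% of all genes called higher and 33.5% called lower. EGR1 was lower by all 3 probe sets: -4.25 ± 0.20 on 201694_s_at (adjusted p = 1.72e-11 in limma), -1.97 ± 0.18 on 227404_s_at and -1.48 ± 0.23 on 201693_s_at, where LNCaP values were under 4. IER2 was lower by -0.61 ± 0.11 (adjusted p = 0.000165 in limma) and ATF3 higher by 0.73 ± 0.17 (adjusted p = 0.00143 in limma). EGR3 was lower by -1.54 ± 0.62 (adjusted p = 0.041 in limma), a call lost without any 1 of 5 of the 6 arrays (all but LNCaP control replicate 2), with values from -1.59 to -1.39. LNCaP control was under 4 for EGR3, and with values under 4 set to 4 the difference was -0.71 (adjusted p = 0.332 in limma). The EGR3 call was also lost with no filter on low values (adjusted p = 0.0766 in limma). FOS was called lower (-1.29 ± 0.35), but both groups were under 4, so no order is read from it. IER3, JUN and JUNB did not pass (adjusted p = 0.107, 0.566 and 0.598 in limma), and 1 JUN probe set, 213281_at, was higher in LNCaP by 1.38 ± 0.19.

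Genes that act with or around these members were taken from lists by function, chosen with earlier results of these arrays known. Other immediate early transcription factors mostly rose with overexpression: 10 rose and 2 fell of 15 tested in 22Rv1, and 11 rose and 2 fell in LNCaP. Over all genes tested, 36.5% were called higher and 24.3% lower in 22Rv1, and 34.1% and 28.0% in LNCaP. MAFF, a small MAF factor that dimerises with AP-1 proteins, rose from 8.23, 8.15 and 8.07 to 11.28, 11.32 and 11.28 in 22Rv1 and from 4.38, 4.53 and 3.82 to 9.27, 10.77 and 10.79 in LNCaP. These are changes of 3.14 ± 0.29 and 6.04 ± 0.29. FOSL1 and FOSL2, FOS relatives that persist after FOS has gone, rose too, FOSL2 by 1.87 ± 0.13 and 1.15 ± 0.13, and FOSL1 in 22Rv1 by at least 0.45. BHLHE40, a repressor induced by many signals, rose by 2.44 ± 0.22 in 22Rv1, and KLF6 and KLF2 by 1.75 ± 0.20 and 1.66 ± 0.25 in LNCaP. MYC, itself an early gene of growth factor signalling, fell by 2.77 ± 0.16 on the log2 scale in LNCaP.

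Early secreted and cytoplasmic response genes were more one-sided in LNCaP, with 7 higher and 0 lower of 11, than in 22Rv1, with 4 higher and 3 lower. Whether the shares differ was not tested. The 22Rv1 count is near the 36.5% of all genes called higher and 24.3% called lower there. In LNCaP these shares over all genes were 34.1% and 28.0%. In LNCaP LIF, a cytokine, rose by at least 2.49, PLK3, a stress-induced kinase, by at least 1.78, and PHLDA1 by 4.19 ± 0.49. GADD45B, a stress sensor, had the split between arrays already seen for IER3, with 5.37 on replicate 1 against 9.57 and 9.03 on replicates 2 and 3 and control values of 5.07, 5.12 and 5.11. PHLDA1 was split the other way, at 11.14 against 8.15 and 8.61. In 22Rv1 HBEGF, a ligand of the EGF receptor, rose by 1.12 ± 0.17, and PLK2 fell by 1.32 ± 0.25 on the log2 scale.

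Negative feedback genes rose more often than they fell in both lines: of 17 tested phosphatases, Sprouty proteins and mRNA decay factors, 10 rose and 2 fell in 22Rv1, and 10 rose and 3 fell in LNCaP. Beside these stand 36.5% of all genes called higher and 24.3% lower in 22Rv1, and 34.1% and 28.0% in LNCaP. DUSP1, DUSP5 and DUSP6 encode phosphatases that switch off MAP kinases, and DUSP6 and DUSP5 transcripts follow ERK activity in many cells. DUSP1 rose by 2.74 ± 0.18 and 1.73 ± 0.18, DUSP5 by 2.35 ± 0.33 and 2.69 ± 0.33, and DUSP6 by 1.73 ± 0.32 in 22Rv1 and at least 2.69 in LNCaP. ZFP36, which speeds decay of AU-rich early transcripts, rose by 1.97 ± 0.13 in 22Rv1, and NAB1, a corepressor of EGR proteins, by 1.99 ± 0.11 in LNCaP. Without LNCaP replicate 1 the LNCaP counts, higher and lower, were 12 and 2 of 15 for the transcription factors, 8 and 0 of 11 for the secreted and cytoplasmic genes, and 9 and 3 of 17 for the feedback genes. Without replicate 3 they were 9 and 2, 7 and 0, and 10 and 2. The LNCaP changes of the named list genes remained called with any 1 of the 3 overexpression arrays left out, over a range of 2.10 to 4.20 for GADD45B.

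**Figure D5:**
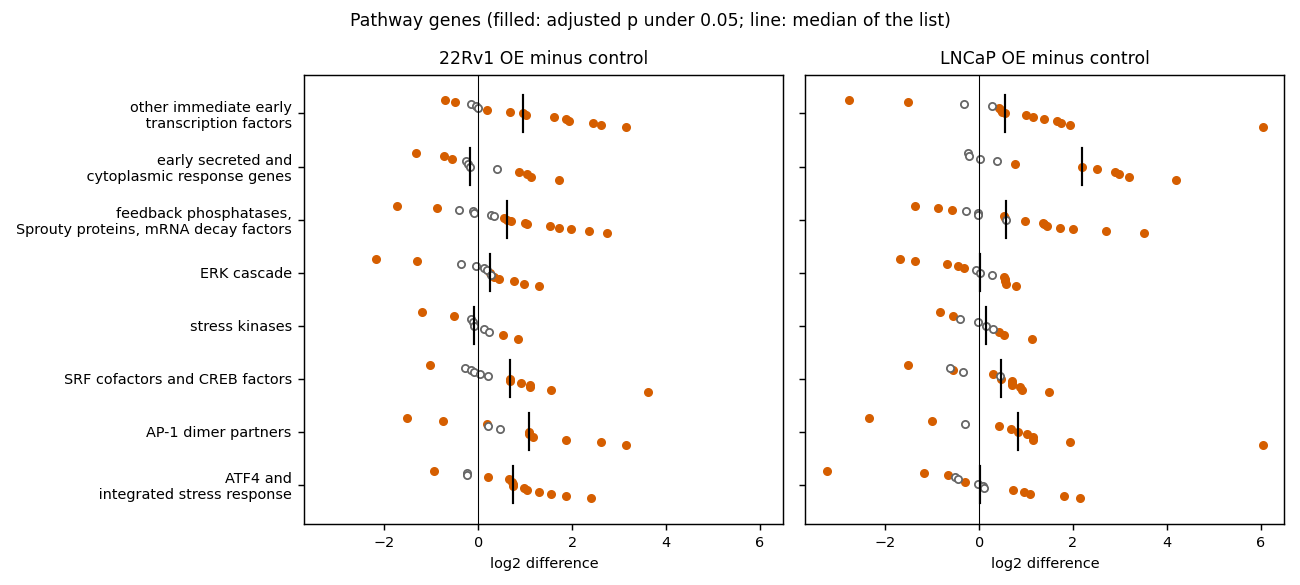
Log2 difference of overexpression (OE) minus control for each tested gene of 8 function lists, 22Rv1 at left and LNCaP at right. Filled points have an adjusted p under 0.05 in limma, open points do not, and the vertical line is the list median. Most filled points of the other immediate early factors, the feedback genes and the AP-1 partners lie to the right of 0 in both lines, and MAFF (6.04 in LNCaP) is in 2 of the lists.

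The kinases upstream moved both ways. Of 13 ERK cascade genes tested, 6 rose and 2 fell in 22Rv1 and 5 rose and 5 fell in LNCaP, with list medians of 0.25 and 0.01. Over all genes tested, 36.5% were called higher and 24.3% lower in 22Rv1, and 34.1% and 28.0% in LNCaP. The AP-1 partner counts below stand beside the same shares. The LNCaP count of the ERK cascade was 6 and 5 without overexpression replicate 1, 5 and 2 without replicate 2 and 5 and 3 without replicate 3. EGFR, the EGF receptor, fell by 2.17 ± 0.30 and 1.69 ± 0.30 on the log2 scale, and MAP2K1, which phosphorylates ERK, rose by 1.28 ± 0.12 in 22Rv1. Transcript levels do not show kinase activity, which was not measured. AP-1 dimer partners rose more often than they fell, 7 against 2 of 11 in 22Rv1 and 8 against 2 in LNCaP, and this list shares MAFF, FOSL1 and FOSL2 with the transcription factors above. In LNCaP the AP-1 partners were 8 and 3 without replicate 1 and 8 and 2 without replicate 3. MAF, a large MAF factor, fell by 2.34 ± 0.29 on the log2 scale in LNCaP.

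ATF3 is also a target of ATF4, the factor of the integrated stress response, and that list was called more often in 22Rv1 (11 rose and 1 fell of 14) than in LNCaP (5 rose and 4 fell), a difference that was not tested. The LNCaP count is near the 34.1% of all genes called higher and 28.0% called lower there. In 22Rv1 these shares were 36.5% and 24.3%. CHAC1, a glutathione-degrading enzyme, rose by at least 1.93 in 22Rv1 and by 1.09 ± 0.19 in LNCaP. DDIT3, the stress factor CHOP, rose by 1.30 ± 0.16 and 2.15 ± 0.16, and SESN2 by 1.87 ± 0.17 and 1.81 ± 0.17. SLC7A11, the cystine transporter, fell in LNCaP by 3.24 ± 0.76 on the log2 scale, from 11.91, 11.97 and 11.49 to 11.44, 6.86 and 7.36, so replicate 1 stayed near control. The LNCaP count of this list was 5 and 4 without replicate 1 or 3, and 5 and 5 without replicate 2.

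In the shRNA-labelled arrays DUSP2 lay furthest below scramble among the genes of the function lists that were called without overlap, followed by PLK2 and PHLDA1 (-1.78 ± 0.49), while most lists moved both ways. Of the 17 feedback genes 4 fell and 1 rose, of the 15 other early factors 5 fell and 4 rose, of the 11 secreted and cytoplasmic genes 3 fell and 1 rose, and of the 13 ERK cascade genes 4 fell and 0 rose, beside 16.1% of all genes called lower and 13.4% called higher. DUSP2, a nuclear MAP kinase phosphatase, was at 8.10, 8.10 and 7.93 in scramble and 5.89, 5.65 and 5.73 in the shRNA-labelled arrays (-2.28 ± 0.18, adjusted p = 1.18e-07 in limma). Control arrays had 5.86, 5.95 and 5.79, so for DUSP2 the scramble arrays were the high ones. DUSP1 (-1.42 ± 0.18), FOSL2 (-1.30 ± 0.13) and PLK2 (-1.90 ± 0.25) were likewise lower in the shRNA-labelled arrays, and each was higher in scramble than in control, by 1.11 ± 0.18, 0.51 ± 0.13 and 1.29 ± 0.25.

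The likeness of other genes to a member was measured as the root mean square difference between the 2 profiles of 6 group means, each centred on its own mean, over 12151 tested genes that are not members. The 5 members whose group means ranged over at least 2 log2 units were used. For EGR1 the 3 nearest profiles were MAFF (0.27), MXRA7 (0.48) and MICB (0.49). The 3 nearest to EGR3 were GJA3 (0.45), SOCS3 (0.66) and C11orf96 (0.68), and the 3 nearest to FOS were MCC (0.29), TMEM150C (0.46) and GALNT16 (0.52). ATF3 was followed by LCMT1P1 (0.37), ZNF211 (0.38) and FAM131B-AS2 (0.39), the first a pseudogene whose probes may read its parent. IER3 had no profile as near, with GRK5 at 0.89, SERTAD1 at 0.98 and HMOX1 at 0.99. Among the members the nearest pairs were EGR1 with FOS (0.98), EGR3 with FOS (1.02) and FOS with IER3 (1.12). All profiles rest on the same 18 arrays, and values under 4 enter them as deposited.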

How the data were processed

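Per the labels' protocols, total RNA of 22Rv1 and LNCaP cells was labelled with a 3′ in vitro transcription kit and hybridised to Affymetrix U133 Plus 2.0 arrays. The authors deposited log2 values made with GCRMA, per the submitters' processing notes. Its version and whether it was run once on the whole series are not stated in the sources used. Of 54675 probe sets, 62 were controls, 41091 had 1 symbol, 1801 several and 11721 none in the supplied gene table (41043 symbols were updated by gene identifier). A gene was read by its single-symbol probe set of highest mean, and tested with a value over 4 on at least 3 arrays. limma 3.58.1 in R 4.3.3 fitted 6 group means to 18 arrays (eBayes with trend and robust, 12 residual degrees of freedom), with Benjamini-Hochberg adjustment over 12159 genes, or over all probe sets passing the filter for probe-set values. The script was tested on simulated data. Replicate numbers were not used to pair the arrays in this fit. The members and lists were chosen with earlier results of these data known. Named were all members, and from each list up to 5 called, non-overlapping genes of largest change per comparison. With 3 arrays against 3, their number limits the precision. Alternatives covered scaling, filter, probe set choice, moderation, arrays in the fit and a replicate block.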

Additional observations from a re-analysis of the deposited data

Results flagged for a closer look

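The change with ONECUT2 overexpression differed between the lines for 6 members by the interaction term of the same limma model, in which these genes were also chosen. LNCaP minus 22Rv1, it was 3.87 for IER3, 3.73 for EGR1, 1.72 for JUN, 0.83 for IER2, 0.71 for ATF3 and -0.79 for JUNB, so JUNB alone among the 6 had the larger rise in 22Rv1. Without LNCaP replicate 1 the values were 5.29 for IER3, 4.04 for EGR1, 0.94 for ATF3 and -0.55 for JUNB. With values under 4 set to 4, IER3 gave 2.67. With the probe sets of a gene averaged, EGR1 gave 1.81, JUN 2.08 and ATF3 1.32. The EGR1 value of 3.73 was read on 201694_s_at. On 201693_s_at the EGR1 difference was at least 0.79, with the LNCaP control set at 4. On 227404_s_at it was 0.08 ± 0.25 (SE) and was not called. The ATF3 call was lost without 22Rv1 control replicate 3 (0.60), 22Rv1 overexpression replicate 3 (0.63) or LNCaP control replicate 1 (0.68). It was also lost without LNCaP overexpression replicate 2 (0.53) or 3 (0.66). The JUNB call was lost with arrays quantile-normalized again (-0.64), and without 22Rv1 control replicate 1 (-0.70) or 22Rv1 overexpression replicate 1 (-0.72).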

How the results depend on the processing

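Of 784 member values recomputed, 732 kept their sign and their side of the threshold, 34 lost a call, 10 gained one and 10 changed sign, 2 of these where a call stood before or after; of 196 counts, 186 stayed within 1.5 times. The calls lost include JUNB in LNCaP overexpression (0.45 with a replicate block), ATF3 in 22Rv1 overexpression (0.21 with probe sets averaged) and JUNB in the line difference (-0.64 with arrays quantile-normalized again). In the overexpression comparisons and the line difference, where no p-value is given, values moved by more than 1 SD in 47 cases. JUN changed sign in 2 comparisons. For scramble against control, single arrays left out gave -0.057 to 0.0030 (above 0 without control replicate 2). For LNCaP against 22Rv1 control they gave -0.14 to 0.024 (above 0 without LNCaP control replicate 1). Averaged probe sets gave 0.36 there, which was called (adjusted p = 0.0063 in limma). In the line difference, EGR3 turned from -0.56 to 0.55 without LNCaP overexpression replicate 1 and to 1.16 without replicates 1 and 3. FOS turned there from 0.07 to -1.22 with values under 4 set to 4. Single arrays left out also took FOS below 0, to -0.37 without LNCaP overexpression replicate 2. IER2 in 22Rv1 overexpression turned from 0.04 to -0.0097 without 22Rv1 control replicate 1. For shRNA-labelled against scramble, the 2 members called became 1 with probe sets averaged and ranged from 1 to 2 with single arrays left out. For scramble against control the 2 became 1 with probe sets averaged, 6 with only the groups compared (all genes: 4629 against 2659 called), and ranged from 1 to 2 with single arrays left out. For LNCaP against 22Rv1 control the 5 became 3 with values under 4 set to 4. The cause of these shifts was not tested, beyond the smaller set of arrays or floor that defines them. The labels do not say what the replicate numbers mark, and the main fit did not pair the arrays by them. Deviations of same-numbered arrays correlated from -0.217 to 0.425. The highest were replicates 2 (0.425) and 3 (0.337) of scramble against control and replicate 3 of shRNA-labelled against scramble (0.322). With a replicate block the members called were 6 in 22Rv1 overexpression, 7 in LNCaP overexpression (8 without the block), 2, 2 and 5 in the other comparisons, and 6 for the difference between lines. Signal near background limits FOSB, EGR3 outside the overexpression groups and FOS in the controls.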

Other observations

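The factors that act on immediate early promoters were read from a list of 13 tested SRF cofactors and CREB factors. In 22Rv1 overexpression 7 rose and 1 fell, beside 36.5% of all genes called higher and 24.3% called lower. In LNCaP 8 rose and 2 fell, beside 34.1% and 28.0% of all genes. ELK3, a ternary complex factor that sits with SRF on CArG boxes, rose in 22Rv1 from 5.54, 6.27 and 5.79 to 9.34, 9.64 and 9.44 (3.61 ± 0.20). ELK4, its relative, fell by 1.52 ± 0.11 on the log2 scale in LNCaP. MRTFA, an actin-regulated SRF cofactor, rose by 1.48 ± 0.14 in LNCaP, and the coactivators CREBBP and EP300 rose by 1.10 ± 0.13 and 1.10 ± 0.21 in 22Rv1. In the shRNA-labelled arrays SRF itself was 0.76 ± 0.16 higher than in scramble (adjusted p = 0.00215 in limma).

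Without LNCaP overexpression replicate 1 the LNCaP count of the SRF cofactors and CREB factors was 9 higher and 4 lower, and without replicate 3 it was 6 and 2.

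Stress kinases moved both ways, with 2 higher and 2 lower of 9 in 22Rv1 overexpression and 3 higher and 2 lower in LNCaP, beside 36.5% and 24.3% of all genes called higher and lower in 22Rv1 and 34.1% and 28.0% in LNCaP. Without LNCaP overexpression replicate 1 the LNCaP count was 4 and 4 and the list median turned from 0.14 to -0.18, and without replicate 2 the count was 3 and 1. MAP2K6, which activates p38, fell in 22Rv1 overexpression by at least 0.76 on the log2 scale and was at least 0.91 higher in the shRNA-labelled than in the scramble arrays, with the groups under 4 (overexpression and scramble) set at 4. Control arrays read 4.77, 4.73 and 4.77, and scramble was below control too (bound -0.76, fitted change -1.13 ± 0.19, adjusted p = 0.000381 in limma), so scramble was the low group for MAP2K6.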
